A study of Mus musculus with 66 samples.

Results

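The miR-29 family was followed here in the plasma of male C3H mice, a strain that develops liver tumours readily, with and without hepatocellular carcinoma (HCC), the cancer of hepatocytes. The members were taken by name, as the 5 mature miRNAs mmu-miR-29a-3p, mmu-miR-29b-3p, mmu-miR-29c-3p, mmu-miR-29a-5p and mmu-miR-29c-5p (written without the mouse prefix below), out of 1826 miRNAs listed for these mice. All 5 were above 0 in all 13 mice and all 5 passed the filter on low counts. The remaining mature arms of the family, miR-29b-1-5p and miR-29b-2-5p, are given beside them.

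The comparison was between 8 C3H HCC mice and 5 C3H non-HCC mice, all male, with plasma drawn by cardiac puncture at necropsy and the diagnosis made by histology. The labels place every one of these mice more than a year after radiation and give no age or dose. The paper counts 5 of the 8 HCC mice as having spontaneous tumours, so that label alone does not show that each mouse was irradiated. The HCC group pools spontaneous and radiation-induced tumours, which the labels do not separate, and whether each non-HCC mouse was irradiated is not given beyond that label. Each mouse gave 1 small-RNA library from plasma. Plasma of F2 mice from a cross of BALB/c and C3H, which has no labelled tumour-free group, was not analysed here.

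The miR-29 miRNAs base-pair through their seed, the bases at positions 2 to 8, with messenger RNAs, and lower the output of their targets. Collagens and other extracellular matrix genes are their best known targets, and miR-29 is known as a brake on the matrix output of hepatic stellate cells, the main matrix-producing cells of the injured liver. Each precursor is a hairpin, and either of its arms can be kept as the mature miRNA. In the miR-29 hairpins the 3p arm is the usual one, and the 5p arm is the passenger that is mostly discarded.

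The 3p sequences are shown because the comparison turns on members that are almost the same molecule. They come from RefSeq (GRCm38.p6), are written 5′ to 3′, and carry the seed in capitals.
miR-29a-3p: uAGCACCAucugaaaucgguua
miR-29c-3p: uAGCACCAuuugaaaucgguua
miR-29b-3p: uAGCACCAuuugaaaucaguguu
The seed was identical in these 3 and in no other of 1679 mature mouse miRNAs of the reference. Counted from the 5′ end, miR-29a-3p and miR-29c-3p differed by 1 substitution in 22 bases, C10U, outside the seed. From miR-29c-3p to miR-29b-3p there were 3 substitutions over the first 22 bases, G18A, U21G and A22U. How reads that fit more than 1 of these were assigned is not given in the sources used here, so the split between miR-29a-3p and miR-29c-3p rests on a single base of each read.

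The 5p arms are shown because their counts were compared with those of the 3p arm of the same hairpin.
miR-29a-5p: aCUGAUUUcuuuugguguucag
miR-29c-5p: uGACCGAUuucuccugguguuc
miR-29b-1-5p: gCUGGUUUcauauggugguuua
miR-29b-2-5p: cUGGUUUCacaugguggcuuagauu
Their seeds, again in capitals, differed from each other and from that of the 3p arms.

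The 4 hairpins lie in pairs at separate loci (GRCm38 coordinates, GENCODE M21 annotation). Mir29a, at chr6:31062660-31062747, and Mir29b-1, at chr6:31063023-31063093, are on the minus strand with 275 bases between them, and the 5′ end of Mir29b-1 overlaps the 3′ end of the exon of the long non-coding RNA Gm27019. Mir29b-2, at chr1:195037040-195037120, and Mir29c, at chr1:195037547-195037634, are on the plus strand with 426 bases between them. Both lie in an exon of the non-coding transcript A330023F24Rik on the same strand, and opposite an exon of Cd46, which encodes a complement regulator. The miR-29b-3p sequence is the same from both loci, so its count cannot be assigned to either. The arms of miR-29a and the miR-29b-1 5p arm are encoded at the chromosome 6 locus. The arms of miR-29c and the miR-29b-2 5p arm are encoded at the chromosome 1 locus. Whether their plasma counts follow the output of a locus was not tested. The precursors of miR-29a and miR-29c are printed whole, with the 5p and then the 3p arm in capitals.
Mir29a: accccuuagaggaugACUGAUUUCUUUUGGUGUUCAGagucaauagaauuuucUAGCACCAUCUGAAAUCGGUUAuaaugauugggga
Mir29c: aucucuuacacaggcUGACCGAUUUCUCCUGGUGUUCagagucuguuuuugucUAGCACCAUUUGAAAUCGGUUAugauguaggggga

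Libraries held 9513136 to 14247488 miRNA UMIs for the HCC group and 10467560 to 13962539 for the non-HCC group. A UMI is a molecular barcode that counts each captured RNA once. The lowest value above 0 was 10, so an entry of 0 means fewer than 10 UMIs. The spike-in UniSP2, a synthetic RNA added before RNA isolation, gave 165794 to 938898 UMIs for the HCC group and 364466 to 731761 for the non-HCC group, so the scale set by the spike-ins varied more among HCC mice. The HCC libraries 1 and 6, 2 and 5, and 3 and 7 were the closest pairs among all 13 mice. Their chi-square per degree of freedom was 33.5, 58.0 and 63.1, far above the value of 1 that counting noise gives. The next closest pair of HCC libraries, 4 and 8, was far less alike, at 794. Among non-HCC libraries the closest pair, 1 and 4, was at 92.7. Whether the 3 close pairs are independent was not tested. They were kept as separate mice, and the fold changes, levels, ratios and shares were also computed with these pairs combined. The p-values measure the spread among these mice.

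The circulating level was highest for miR-29a-3p, which ranked 23 of 1826 miRNAs by mean abundance with 0.688% of miRNA UMIs. miR-29c-3p ranked 62 with 0.147% and miR-29b-3p ranked 99 with 0.0438%. The 5p arms were far rarer, with 0.00199% for miR-29a-5p (rank 281), 0.00189% for miR-29b-1-5p (rank 285), 0.00136% for miR-29c-5p (rank 315) and 0.000164% for miR-29b-2-5p (rank 862), the last being above 0 in 11 of 13 mice. miR-29a-3p exceeded miR-29c-3p in 8 of 8 HCC and 5 of 5 non-HCC mice, and miR-29c-3p exceeded miR-29b-3p in 8 of 8 and 4 of 5. Among the 5p arms, miR-29a-5p exceeded miR-29b-1-5p in 5 of 5 non-HCC mice but in 2 of 8 HCC mice.

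miR-29c-3p was higher in the plasma of HCC mice and was the only one of the 5 members to pass the test across all miRNAs. Its level, in log2 UMIs scaled to the spike-ins, was 11.68, 12.02, 11.63, 12.28 and 13.10 in non-HCC mice 1 to 5, and ran from 12.46 through a median of 14.66 to 16.59 in the 8 HCC mice. In 5 of the 8 tumour-bearing mice it exceeded every non-HCC value, and HCC mice 3, 7 and 8 fell within the non-HCC range. The mean was 14.55 ± 1.75 (SD, n = 8) against 12.14 ± 0.60 (SD, n = 5), a difference of 2.40 with an exact two-sided permutation p of 0.0171. Its log2 fold change in edgeR was 3.08 ± 0.80 (SE), with a Benjamini-Hochberg adjusted p of 0.0202 over 1452 miRNAs (quasi-likelihood). The same test called 109 miRNAs, 7.51% of those tested, all higher in HCC mice, and the median log2 fold change of all miRNAs tested was 0.78. On this scale edgeR called 0 miRNAs lower, where 3 had an unadjusted p under 0.05, and DESeq2 called 2 lower. With UniSP4 alone edgeR called 1 lower, and on the TMM scale described further on it called 32 lower. The adjusted p rose to between 0.0619 and 0.0701 without any 1 of non-HCC mice 1 to 4, and to 0.132 with limma on log2 values.

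The level of miR-29a-3p was 15.03, 15.15, 14.86, 15.46 and 16.50 in non-HCC mice 1 to 5 and ran from 14.93 through a median of 16.47 to 18.63 in HCC mice. The groups overlapped, with 4 of 8 HCC mice above all non-HCC mice. The mean was 16.66 ± 1.52 (SD, n = 8) against 15.40 ± 0.65 (SD, n = 5), a difference of 1.26 that did not pass on this scale (exact permutation p = 0.119). On the TMM scale the difference was 0.80 (exact permutation p = 0.0163), with 4 of 8 HCC mice above the non-HCC range. Relative to each library's miRNA total it was 0.90 (exact permutation p = 0.00389), with 8 of 8 above, a separation that 4.41% of all miRNAs showed on that scale. Its log2 fold change in edgeR was 1.78 ± 0.72 (SE, adjusted p = 0.154), and DESeq2 on the same spike-in scale gave an adjusted p of 0.0342 for it.

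miR-29b-3p, the rarest 3p member, was at 10.31, 11.28, 10.80, 11.09 and 13.34 in non-HCC mice 1 to 5 and between 10.29 and 15.08, with a median of 12.72, in HCC mice. Non-HCC mouse 5 was the highest of its group and above 5 of the HCC mice. The log2 fold change was 1.66 ± 0.82 (SE) with an edgeR adjusted p of 0.276, and 3 of 8 HCC mice exceeded every non-HCC mouse.

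The 5p arms of the miR-29a and miR-29c hairpins did not pass the test. miR-29a-5p was at 6.97, 7.71, 6.96, 7.47 and 9.05 in non-HCC mice 1 to 5, and from 6.67 through a median of 7.96 to 9.48 in HCC mice. The groups overlapped throughout, with 2 HCC mice above and 2 below all non-HCC mice, and the log2 fold change was 0.51 ± 0.64 (SE, edgeR adjusted p = 0.782). miR-29c-5p was at 6.11, 7.00, 6.39, 6.64 and 7.17 in non-HCC mice and from 5.50 through 7.79 to 9.41 in HCC mice. HCC mice lay on both sides of the non-HCC range, 5 above and 2 below, and the log2 fold change was 1.50 ± 0.69 (SE, edgeR adjusted p = 0.233).

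**Figure D1:**
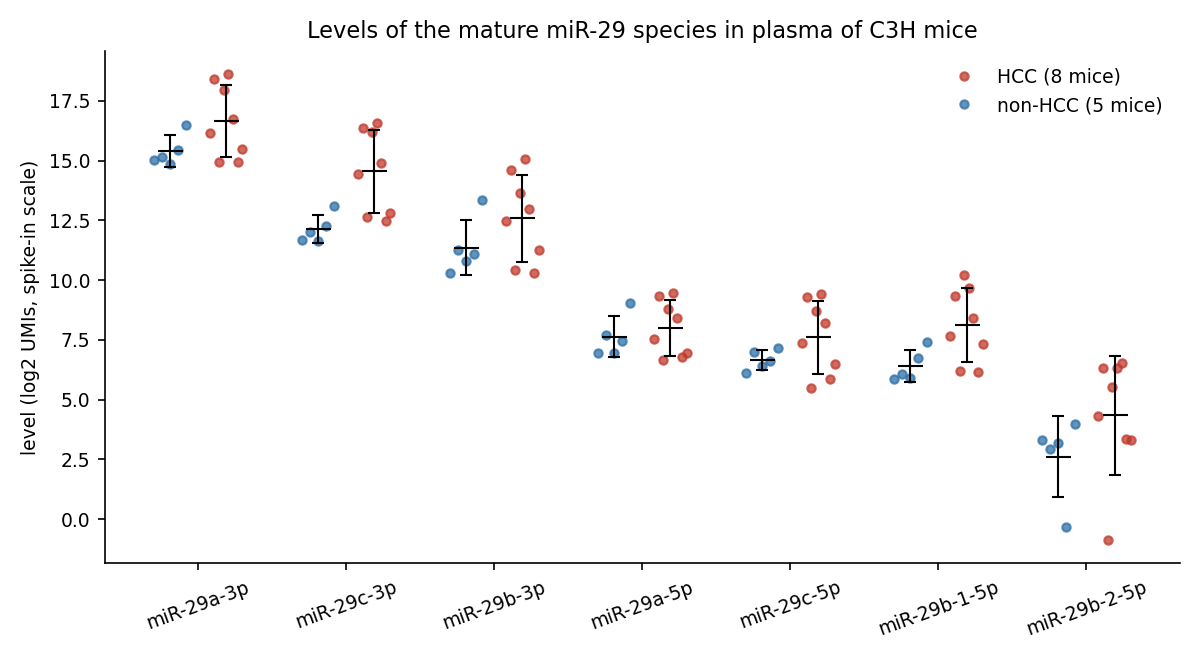
Level of each mature miR-29 miRNA, in log2 UMIs scaled to the spike-ins (vertical axis), for the 8 HCC mice (red) and 5 non-HCC mice (blue), with the group mean and SD in black. For miR-29c-3p, miR-29c-5p, miR-29b-1-5p and miR-29b-2-5p, 5 of 8 HCC mice exceeded every non-HCC mouse, and for miR-29a-5p 2 did. HCC mice below every non-HCC mouse numbered 0 for miR-29c-3p and miR-29b-1-5p. They numbered 1 for miR-29b-2-5p and 2 for miR-29c-5p and miR-29a-5p. The lowest point of each group for miR-29b-2-5p is an entry of 0.

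The 5p arms of the miR-29b hairpins had the largest log2 fold changes of the family after miR-29c-3p. miR-29b-1-5p was at 5.85, 6.05, 5.90, 6.76 and 7.41 in non-HCC mice and from 6.13 through 8.05 to 10.22 in HCC mice, and 5 of 8 HCC mice exceeded every non-HCC mouse. The mean difference was 1.73 (exact permutation p = 0.0427), and the log2 fold change was 2.26 ± 0.75 (SE, edgeR adjusted p = 0.0666), short of the threshold. The rarest arm, miR-29b-2-5p, was listed at 22, 28, 0, 36, 27, 55, 19 and 13 UMIs in HCC mice 1 to 8 and at 14, 10, 11, 0 and 11 in non-HCC mice. These entries lie close to the lowest value listed, and its log2 fold change was 2.38 ± 1.01 (SE, edgeR adjusted p = 0.185).

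Among all miRNAs tested the 5 members had a median log2 fold change of 1.66, beside 0.78 for all 1452, and 1 of 5 was called higher and 0 lower, beside 7.51% of all miRNAs called higher.

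**Figure D2:**
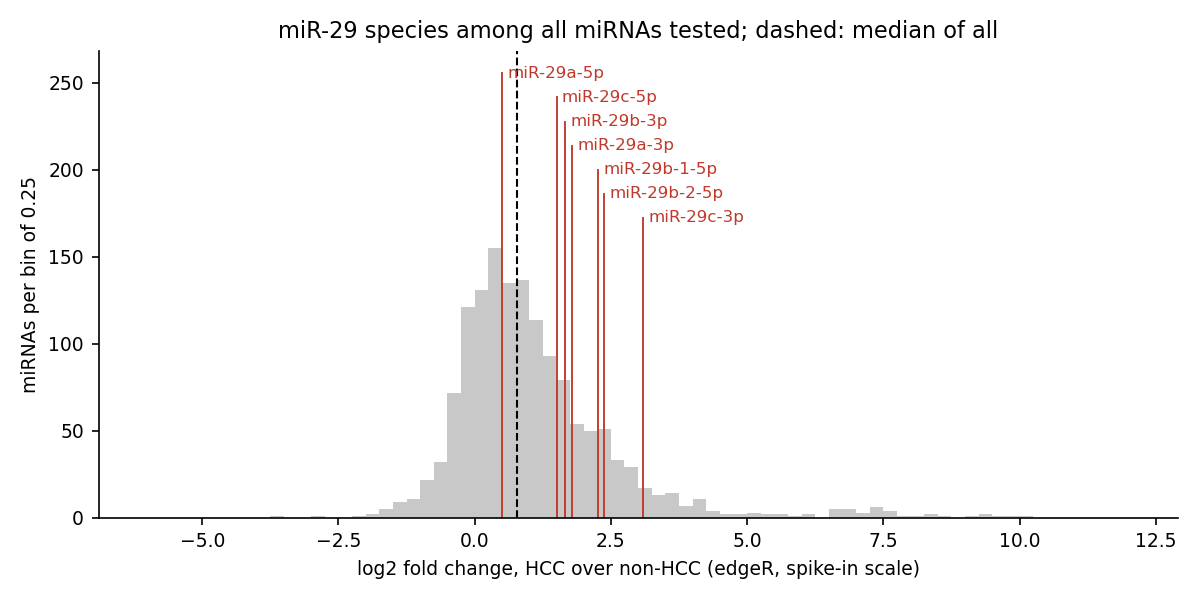
Histogram of the edgeR log2 fold change, HCC over non-HCC, on the spike-in scale (horizontal axis) for the 1452 miRNAs tested, as miRNAs per bin (vertical axis). Red lines mark the miR-29 miRNAs and the dashed line the median of all, 0.78; miR-29a-5p lies below that median at 0.51 and miR-29c-3p farthest above it at 3.08.

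The scale of the libraries moved all fold changes. TMM normalisation, which takes the bulk of miRNAs as unchanged, brought the median of all miRNAs to 0.17, and values on it are relative to that bulk. On this scale the log2 fold change was 2.14 for miR-29c-3p (edgeR adjusted p = 0.00484), 1.43 for miR-29b-1-5p (0.0270), 0.90 for miR-29a-3p (0.0848), 0.82 for miR-29b-3p (0.320) and 0.56 for miR-29c-5p. miR-29a-5p turned to -0.14. Of all miRNAs 7.37% were called higher on the TMM scale, and 1 of 5 members, again miR-29c-3p. Every HCC mouse then exceeded every non-HCC mouse for miR-29c-3p, from 13.27 to 15.38 against 12.27 to 12.68, and for miR-29b-1-5p, from 7.11 to 9.40 against 6.39 to 6.99. The 3.72% of miRNAs that were separated this way on the TMM scale compare with 1.52% on the spike-in scale, where none of the 5 members was.

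**Figure D3:**
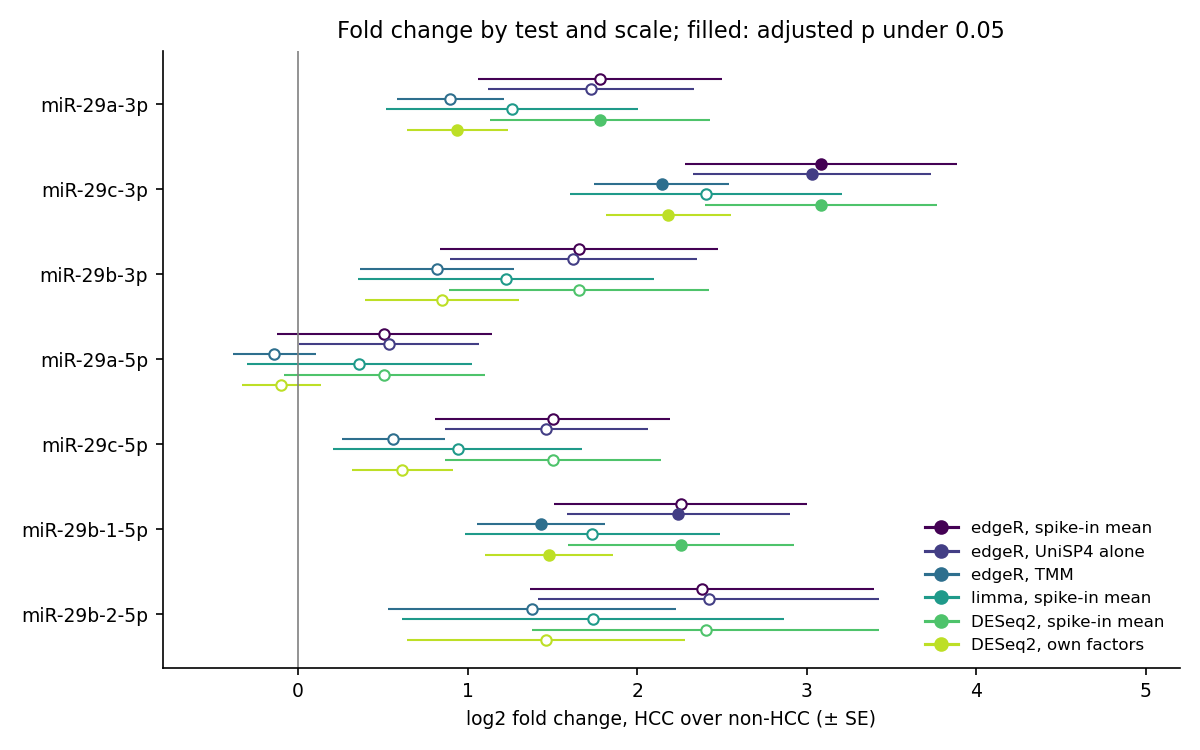
Log2 fold change, HCC over non-HCC, with its SE (horizontal axis) for each miR-29 miRNA under 6 combinations of test and library scale (colours); filled points have an adjusted p under 0.05. miR-29c-3p is filled in all but limma, miR-29b-3p and miR-29c-5p in none, and miR-29a-5p is below 0 under TMM and under DESeq2's own factors.

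Ratios between members within a library do not depend on the library scale. miR-29c-3p came to 9.83, 11.4, 10.7, 11.0 and 9.45% of miR-29a-3p in non-HCC mice 1 to 5, and to 29.7, 24.1, 20.1, 29.5, 24.4, 27.5, 18.0 and 15.7% in HCC mice 1 to 8. The non-HCC mice were tightly grouped, and every HCC mouse lay above all of them. The log2 ratio rose by 1.14 in HCC mice, from -3.26 ± 0.11 (SD, n = 5) to -2.12 ± 0.34 (SD, n = 8), with an exact two-sided permutation p of 0.000777, the smallest that 1287 splits of these mice can give, and 0.0013 after Benjamini-Hochberg adjustment over 5 ratios. Of the 698 other miRNAs above 0 in all mice, 12, or 1.72%, were separated from miR-29a-3p in the same direction. Besides miR-29c-3p these were miR-122-5p and miR-122-3p, the arms of the main hepatocyte miRNA, miR-192-5p, miR-148a-3p and -5p and miR-802-5p and -3p, all abundant in liver, and miR-130a-3p, miR-193a-3p, miR-2137 and miR-465c-5p.

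The ratio of miR-29b-3p to miR-29a-3p did not separate the groups. It was 3.80, 6.83, 6.02, 4.83 and 11.1% in non-HCC mice 1 to 5 and from 4.00 through 6.20 to 8.56% in HCC mice, a log2 difference of -0.04 (exact permutation p = 0.898). The ratio of miR-29b-3p to miR-29c-3p was lower in every HCC mouse, at 17.2 to 35.1%, than in any non-HCC mouse, at 38.6, 60.0, 56.2, 43.8 and 118%. Its log2 value differed by -1.18 (exact permutation p = 0.000777, adjusted p = 0.0013). How many other miRNAs were separated from miR-29c-3p in this way was not computed. miR-29c-3p thus rose against both other 3p members, and the 3 ratios share their counts and are not independent.

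In the miR-29a and miR-29c hairpins the 5p arm fell relative to the 3p arm. miR-29a-5p came to 0.373, 0.574, 0.417, 0.391 and 0.571% of miR-29a-3p in non-HCC mice 1 to 5 and to between 0.175 and 0.348%, with a median of 0.259%, in HCC mice. The log2 ratio of HCC minus non-HCC mice differed by -0.90, with an exact permutation p of 0.00233 and an adjusted p of 0.00291. miR-29c-5p came to 2.08, 3.07, 2.61, 1.98 and 1.63% of miR-29c-3p in non-HCC mice and to between 0.561 and 1.23%, with a median of 0.744%, in HCC mice. The log2 difference was -1.46 (exact permutation p = 0.000777, adjusted p = 0.0013). For both hairpins all 8 HCC mice lay below all 5 non-HCC mice. The miR-29b arms did not follow these: miR-29b-1-5p came to 2.36 to 9.21% of miR-29b-3p in HCC mice (median 4.83%) and to 1.63 to 4.93% (median 3.29%) in non-HCC mice, with 4 of 8 HCC mice above the non-HCC range and 0 below it. This ratio was not tested, and its 3p count also holds miR-29b-3p from the other locus. Of the 161 hairpins with both arms above 0 in all mice, 4.97% had a ratio of the rarer to the commoner arm separated downward in HCC mice and 3.73% upward. The median log2 difference over the 161 was 0.02, and 77 of them were lower in HCC mice. The other hairpins separated downward were those of miR-126b, miR-130a, miR-335, miR-361, miR-378a and miR-615.

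**Figure D4:**
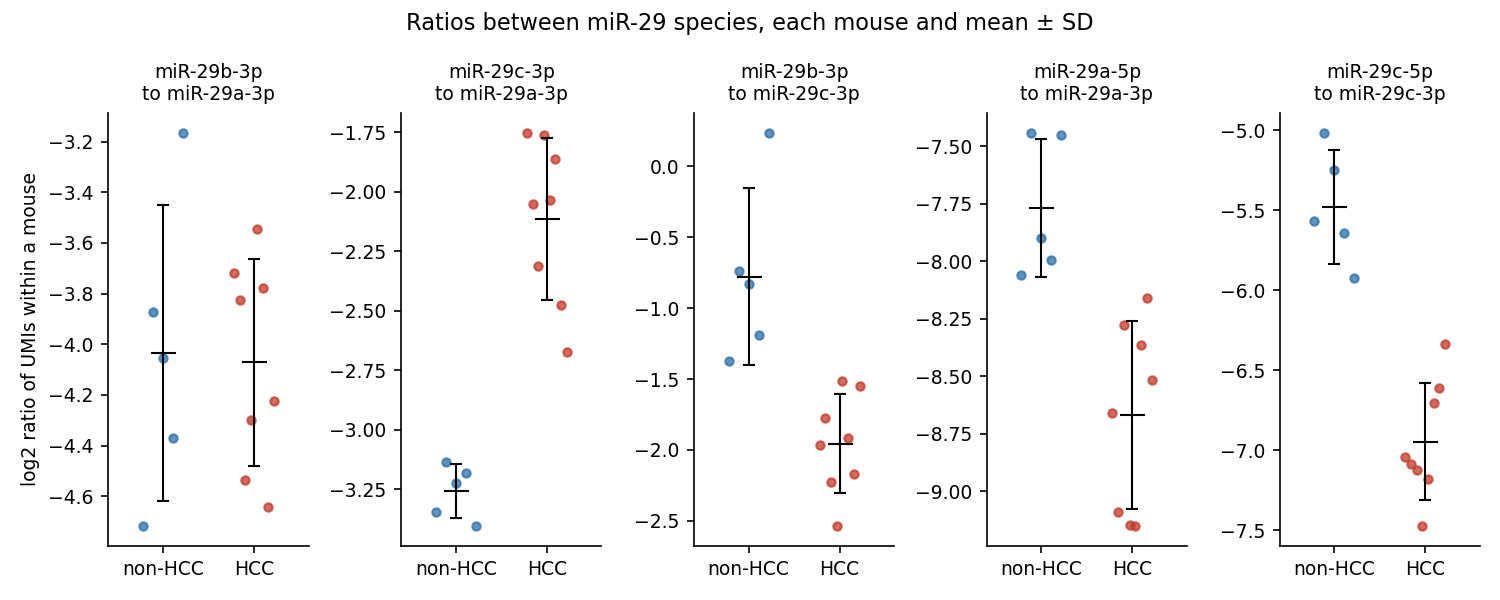
Log2 ratio of UMIs of one miR-29 miRNA to another within each mouse (vertical axis, its range set per panel), for 5 non-HCC mice (blue) and 8 HCC mice (red), with mean and SD in black. The groups overlap for miR-29b-3p to miR-29a-3p and do not overlap in the other 4 panels, where miR-29c-3p to miR-29a-3p is higher in HCC mice and the other 3 are lower.

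Between the 5p arms of the chromosome 6 locus, miR-29b-1-5p came to 64.0 to 266% of miR-29a-5p with HCC against 31.5 to 60.9% without, so that all 8 HCC mice were higher. This pair was chosen after its values were seen and is given without a test. The share of other pairs separated this way was not computed. miR-29b-1-5p set against miR-29a-3p, from the same locus, overlapped between the groups, at 0.185 to 0.468% against 0.170 to 0.238%. Set against miR-29c-3p it came to 0.768 to 2.21% (median 1.14%) with HCC and 1.59 to 2.16% (median 1.85%) without, with 6 of 8 HCC mice below the non-HCC range and 1 above it. The 266% belongs to HCC mouse 4, which had 942 UMIs of miR-29b-1-5p where the other HCC mice had 135 to 284.

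The 3 abundant arms together took a larger share of plasma miRNA in HCC mice. They made up 0.534, 0.449, 0.439, 0.482 and 0.611% of miRNA UMIs in non-HCC mice 1 to 5 and 0.634 to 2.15%, with a median of 1.04%, in HCC mice. Every HCC mouse exceeded every non-HCC mouse, the lowest by a small margin. Of all single miRNAs tested, 4.41% were separated this way relative to the miRNA total. miR-29a-3p, which makes up most of this sum, was among them, so the share largely repeats its result. The log2 share differed by 1.05 (exact permutation p = 0.00233). Within this sum miR-29c-3p held 12.9 to 21.9% with HCC against 7.84 to 9.63% without, and miR-29a-3p 72.9 to 82.6% and 82.9 to 88.0%. A share also moves with whatever else is in the library, such as the liver and red cell miRNAs summed next. With miR-122-5p taken out of the total, the log2 share differed by 1.43 (exact permutation p = 0.00311). Relative to the miRNAs above 0 in all 13 mice without the 10 most abundant, it differed by 1.22 (exact permutation p = 0.000777).

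The miRNAs that mark cell types were summed beside these results. The 5 liver miRNAs made up 4.14 to 51.8% of miRNA UMIs with HCC against 0.908 to 1.15% without, and 4 of 5 were called higher, with a median log2 fold change of 4.51. miR-122-5p had a log2 fold change of 7.34 ± 1.17 (SE, edgeR adjusted p = 0.00303). The 6 red cell miRNAs, with miR-451a among them, made up 6.69 to 39.5% with HCC against 36.5 to 38.9% without, and 0 of 6 were called (median log2 fold change -0.54). Of 5 platelet and leukocyte miRNAs 0 were called on the spike-in scale (median -0.69) and 4 were lower on the TMM scale. The muscle list (0 of 5 called, median 1.47), the stromal list (0 of 4 tested, median 1.52) and the endothelial list (0 of 2, median 0.32) gave no call with edgeR on either scale. At an unadjusted p under 0.05 on the spike-in scale, 2 stromal, 1 muscle, 0 endothelial and 0 red cell miRNAs were higher, and 1 platelet and leukocyte miRNA, miR-150-5p, was lower. None of the listed markers was at 0 in any mouse. The part that liver or blood cell RNA takes in the miR-29 differences was not tested, and more cells releasing miR-29 and more miR-29 released per cell cannot be told apart in plasma.

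Other miRNAs with published roles in fibrosis were mostly short of the threshold. Of 15 tested, 1 was called higher and 0 lower, with a median log2 fold change of 1.25 beside 0.78 for all miRNAs. The one called was miR-192-5p, at 4.51 ± 0.87 (SE, edgeR adjusted p = 0.00566), which is also on the liver list. miR-34a-5p, a target of p53, stood at 2.81 (adjusted p = 0.0583) and miR-21a-5p, which promotes stellate cell activation, at 1.93 (adjusted p = 0.139). miR-150-5p, abundant in lymphocytes, stood at -1.82 (adjusted p = 0.0957) and the immune-cell miRNA miR-155-5p at -1.06 (adjusted p = 0.453). On the TMM scale these last 2 were called lower and miR-192-5p higher. At an unadjusted edgeR p under 0.05 on the spike-in scale, 5 of the list were higher and 1, miR-150-5p, was lower. The higher ones also include miR-30a-5p and miR-146a-5p.

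Over the 8 HCC mice the spike-in-scaled level of each member followed that of miR-122-5p. Pearson's r was 0.83 for miR-29a-3p, 0.90 for miR-29b-3p, 0.83 for miR-29c-3p, 0.84 for miR-29a-5p and 0.90 for miR-29c-5p, with exact permutation p-values of 0.0154, 0.00335, 0.0148, 0.00987 and 0.00355 and adjusted values over the 5 of 0.00887 or 0.0154. Spearman's rho was 0.90 to 0.93 (exact permutation p = 0.00456 after adjustment). Without HCC mice 3 and 7, which lay farthest from the median of miR-122-5p, r was 0.62 to 0.75 (adjusted exact permutation p = 0.190) and rho was 0.83 for each member (adjusted exact permutation p = 0.0583), so neither passed over the 6 mice left. Both axes carry the same spike-in scale, and these p-values treat the similar libraries as separate mice. The correlations were not recomputed with the pairs combined, where only 5 HCC values remain. On the TMM scale r was 0.26 for miR-29a-5p, 0.47 for miR-29a-3p, 0.54 for miR-29c-3p, 0.75 for miR-29c-5p and 0.76 for miR-29b-3p, with adjusted exact permutation p-values of 0.103 to 0.520. On that scale and without HCC mice 3 and 7, r ran from 0.02 for miR-29a-3p to 0.39 for miR-29b-3p (adjusted exact permutation p = 0.976). How other miRNAs correlated with miR-122-5p over these mice was not computed. The ratio of miR-29c-3p to miR-29a-3p, looked at after its values were seen, gave r = 0.57 with miR-122-5p over the 8 HCC mice (exact permutation p = 0.138) and rho = 0.48 (exact permutation p = 0.243). Without mice 3 and 7 its r was 0.33.

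**Figure D5:**
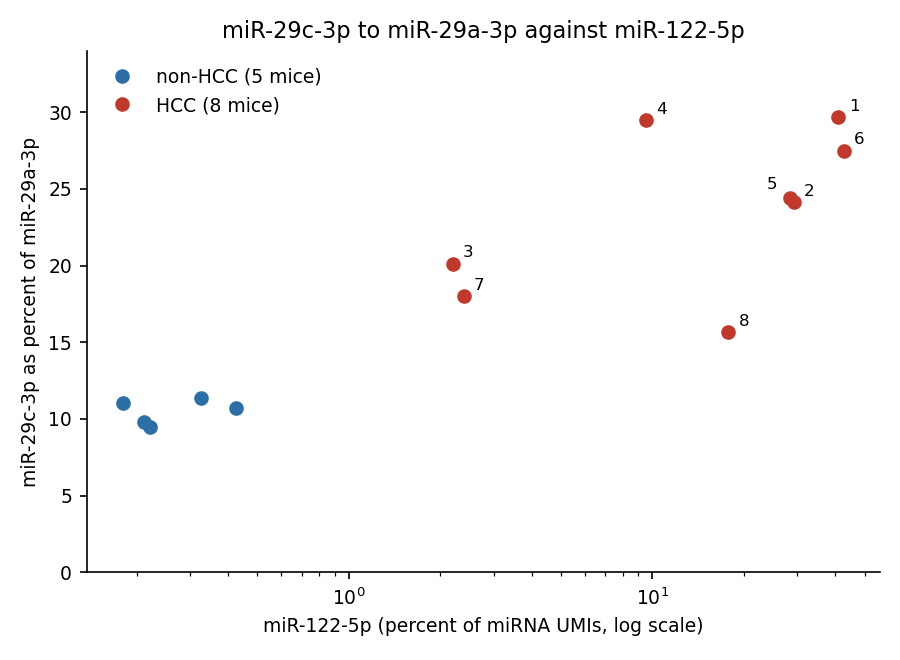
miR-29c-3p as a percent of miR-29a-3p (vertical axis) against miR-122-5p as a percent of miRNA UMIs (horizontal axis, log scale), 1 point per mouse, with HCC mice (red) numbered. The 5 non-HCC mice (blue) sit at 9.45 to 11.4% and all 8 HCC mice above them at 15.7 to 29.7%; the similar libraries 1 and 6, 2 and 5, and 3 and 7 fall close together.

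The miRNAs whose levels were most like that of miR-29a-3p over all 13 mice were miR-378c (r = 0.993), miR-378a-3p (0.987), miR-378d (0.987), miR-22-5p (0.981) and let-7f-2-3p (0.977), where the median over 693 miRNAs was 0.787. These are correlations over mice of both groups that share the spike-in scale, and they are given as a description. On the TMM scale the first 4 were the same, with r of 0.963, 0.937, 0.929 and 0.928, followed by miR-335-5p at 0.919, while the median fell to -0.09. Within the family, and on the spike-in scale, miR-29b-3p held place 12 among 698 miRNAs (r = 0.972), miR-29c-5p place 21, miR-29c-3p place 23 (r = 0.962) and miR-29a-5p place 81. On the TMM scale miR-29c-3p held place 3 (r = 0.932) and miR-29a-5p place 184 (r = 0.41).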

How the data were processed

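Plasma of 13 C3H mice was sequenced with a QIAseq miRNA kit after UniSP2 and UniSP4 spike-ins had been added. The authors aligned reads to GRCm38, annotated miRNAs by miRBase release 20 and deposited UMI counts per miRNA; the submitters' processing notes name FastQC and Bowtie2. Of the deposited tables, 53 columns for F2 mice were not used, because their names match no sample label. Counts were tested with edgeR 4.0.16 (quasi-likelihood, two-sided, Benjamini-Hochberg threshold 0.05) with the mean of the 2 spike-ins as library size, for the 1452 miRNAs that reached 5 UMIs in 5 or more mice. Levels are log2(count + 1) on that scale. Single values were compared by exact permutation over 1287 splits. Alternatives were TMM, single spike-ins, each library's miRNA total, limma 3.58.1, DESeq2 1.42.0, other filters and pseudocounts, a replicate block and leaving out each mouse. For the summed share, other totals were also used. Scripts were tested on simulated data. Named miRNAs were the members, the other mature arms, the 5 closest neighbours of miR-29a-3p and the fixed fibrosis and cell type lists. The members and lists were chosen with earlier results of these data known. miR-199a-3p, listed only under a joined name, was left out of the lists.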

Additional observations from a re-analysis of the deposited data

Results flagged for a closer look

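Of 26 groups of values examined, 3 held a mouse far from the others of its group, and chance flags about 1 in 20. The share of the summed miR-29 3p arms in HCC mouse 4 was 2.15% of miRNA UMIs, with the next highest HCC mouse at 1.34%. For miR-29b-2-5p, HCC mouse 3 had a log2 level of -0.87 on the spike-in scale, below the next lowest at 3.29. Non-HCC mouse 4 had -0.32 for the same miRNA, below the next lowest at 2.93. Both low values are entries of 0, so they stand for fewer than 10 UMIs rather than a measured level.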

How the results depend on the processing

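The ratio of miR-29c-3p to miR-29a-3p, that of miR-29b-3p to miR-29c-3p, both 5p to 3p ratios and the summed share kept their direction and their call under all 16 alternatives run for each, with adjusted p from 0.000777 to 0.00992. These include averaging the 3 pairs of similar HCC libraries, an alternative chosen after seeing the data, where the smallest possible exact permutation p is 0.00794. In each of these values every HCC mouse was already separated from every non-HCC mouse. Leaving out a mouse or averaging pairs could therefore not undo the separation. Replacing entries of 0 could not change these ratios either, because none of the members had such an entry. The call of miR-29c-3p across all miRNAs was kept in 18 of 23 alternatives. Of these, UniSP2 alone could hardly differ from the main fit. UniSP4 gave only 225 to 1008 UMIs in HCC and 504 to 867 in non-HCC libraries, so UniSP2 sets the spike-in mean. With the pairs summed 97 miRNAs were called and miR-29c-3p had an adjusted p of 0.0221. The number of miRNAs called, 109, became 44 with limma, 222 with DESeq2 and its own size factors, 183 with DESeq2 and the spike-ins, and 44 to 157 when 1 mouse was left out, with the fewest without HCC 2 (65) or any of non-HCC 1 to 4 (44, 47, 47 and 53). The members called became 0 with limma, 2 with either DESeq2 fit, and 0 to 1 when 1 mouse was left out, 0 without any of non-HCC 1 to 4. Higher and lower calls split 107 to 32 with TMM, 173 to 49 with DESeq2's own factors, 181 to 2 with DESeq2 and the spike-ins and 130 to 1 with UniSP4 alone. For miR-29a-5p the sign turned, with log2 fold changes of -0.14 (TMM) and -0.10 (DESeq2's own factors) and a level difference of -0.10 on the TMM scale. The ratio of miR-29b-3p to miR-29a-3p ran from -0.21 to 0.18 when 1 mouse was left out, at 0.03 without HCC 3, 0.05 without HCC 7, 0.01 without non-HCC 2 and 0.18 without non-HCC 5. The causes were not tested.

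With miR-122-5p, r for miR-29a-3p, miR-29b-3p, miR-29c-3p, miR-29a-5p and miR-29c-5p became 0.62, 0.75, 0.63, 0.71 and 0.72 without HCC 3 and 7, and 0.47, 0.76, 0.54, 0.26 and 0.75 on the TMM scale. The level difference of miR-29b-1-5p kept its call in 8 of 17 alternatives.

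Mice of the 2 groups share replicate numbers that only count them. Deviations of same-numbered mice correlated at 0.03, -0.13, 0.05, -0.13 and 0.07, and 1 of 5 HCC mice and 0 of 5 non-HCC mice correlated best with their own number. A fit with a replicate block left out HCC mice 6, 7 and 8, whose numbers have no non-HCC counterpart, and tested 1252 miRNAs. It called 146 miRNAs and 3 of the 5 members. The edgeR adjusted p was 0.0205 for miR-29a-3p, 0.0262 for miR-29b-3p and 3.84e-05 for miR-29c-3p. The block has no basis in the design and the fit used fewer mice, so its calls are given only as a description. Entries under 10 UMIs limit what can be read from miR-29b-2-5p, and 13 mice limit what any comparison can show.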
